A study of Mus musculus with 34 samples.

Results

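Skeletal muscle RNA was compared between MIRKO mice, in which the insulin receptor gene Insr was deleted in muscle, and IRlox mice, the floxed controls of the same colony. The comparison takes every library whose label names one of these groups, 4 MIRKO and 3 IRlox libraries, which are 7 of the 34 libraries of the series, and it covers all genes measured. The other libraries come from mice without the IGF-1 receptor in muscle (MIGF1RKO), without both receptors (MIGIRKO), or without both receptors and FoxO1, FoxO3 and FoxO4 (QKO), and from their own floxed controls. RNA came from powdered quadriceps and gastrocnemius muscle, mixed together, and was sequenced as stranded libraries.

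The mice were males of a mixed background that contains C57Blk6, C57Blk6J and 129. In MIRKO mice a Cre recombinase driven by Acta1, the skeletal muscle actin gene, was used, which directs the deletion to skeletal muscle fibers and leaves Insr in the other cells of the tissue. IRlox mice were littermates with the floxed alleles and are given as controls. Both groups were mixed for the Nnt genotype, that is, homozygous or heterozygous, and the age of the mice is not given in the labels. The labels do not tie a MIRKO mouse to an IRlox littermate. They name the libraries separately without saying more, so the p-values below measure the spread between libraries, which the main fit estimated over all 34 libraries of the series.

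The insulin receptor is a tyrosine kinase of the cell surface. Once it has bound insulin it signals through insulin receptor substrates, PI3-kinase and the kinase Akt, which sends the glucose transporter GLUT4 to the membrane, promotes protein synthesis and keeps FoxO transcription factors out of the nucleus. Muscle is the main tissue that takes up glucose in response to insulin, and the closely related IGF-1 receptor uses the same pathway.

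The 7 libraries held 3880455 to 6117074 counts. The fast myosin gene Myh4 took 5.29 to 6.10% of the counts in IRlox and 4.83, 5.19, 4.22 and 3.11% in MIRKO 1 to 4, and the scaling factors that balance the libraries were 0.926 to 0.986 in IRlox and 1.048 to 1.265 in MIRKO. Values are therefore given as CPM, the counts scaled to a common total after these factors. The library labelled MIRKO 4 stood apart from its own group: its closest MIRKO library reached r = 0.948 over all genes tested, against 0.965 for the other MIRKO libraries. Its closest library was MIGIRKO 3 (r = 0.981). MIRKO 1 and MIRKO 3 were both closest to the same library, MIGIRKO 6 (r = 0.970 and 0.973), and MIRKO 2 to MIGF1RKO 4 (r = 0.975). Whether any label was exchanged was not tested. A setting given below leaves out MIGIRKO 6 as well as the library labelled MIRKO 4. Counts of calls, gene lists and the genes named below are also given without the library labelled MIRKO 4 where a test was made. The libraries were also numbered in 6 runs of consecutive library numbers. IRlox 1 to 3 were in runs 1, 2 and 3 and MIRKO 1 to 4 in runs 2, 4, 5 and 6, so genotype and run can hardly be told apart, and only MIRKO 1 and IRlox 2 shared a run.

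Insr itself (ENSMUSG00000005534, chromosome 8, 3122061 to 3279617, minus strand, GRCm38) was measured at 172, 171 and 146 CPM in IRlox and at 42.8, 47.5, 42.5 and 50.7 CPM in MIRKO 1 to 4. The groups were far apart, and the library labelled MIRKO 4 carried the same loss as the others. The log2 change of Insr was -1.83 with a standard error (SE) of 0.17, a 3.55-fold loss. The adjusted p was 1.9e-08 (edgeR's quasi-likelihood test, Benjamini-Hochberg adjustment over all genes tested), and 1.5e-07 without the library labelled MIRKO 4. In bulk muscle, fewer cells of a type and less RNA per cell cannot be told apart, here or in any later result. The IGF-1 receptor gene Igf1r, which was not targeted, was at 18.0, 16.8 and 12.5 CPM in IRlox and 18.7, 21.5, 29.2 and 19.0 CPM in MIRKO, a log2 difference of 0.50 ± 0.23 (SE) that did not pass the test (adjusted p = 0.26, and 0.32 without the library labelled MIRKO 4). Nnt, the mitochondrial transhydrogenase, was at 89.1, 23.6, 33.6 and 35.7 CPM in MIRKO against 99.6, 132 and 97.6 CPM in IRlox (adjusted p = 0.19, and 0.37 without that library). It was uneven within MIRKO, and every MIRKO library was below every IRlox library without a call. The part of the Nnt genotype in the mitochondrial results below was not tested.

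Of 13646 genes tested, 170 (1.25%) were called at an adjusted p under 0.05, 52 higher (0.381%) and 118 lower (0.865%) in MIRKO. Genes with an unadjusted p under 0.05 numbered 2345. All 118 genes called lower were lower in each MIRKO library than in each IRlox library, and 48 of the 52 called higher were higher in each. Over all genes tested, 8.22% lay below IRlox in every MIRKO library and 7.88% above it. The called genes were chosen by a test of these same libraries, so their separation is not an independent check. Of the 170 genes, 101 differed at least 2-fold, and the median log2 change was -0.98 for the genes called lower and 1.71 for those called higher.

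The number of calls rested on single libraries. The library labelled MIRKO 4 was the lowest of the 4 for 91 of the 118 genes called lower and the highest for 36 of the 52 called higher. Without it 13 genes were called (0.0959%), all 13 among the 170, and each of the 170 kept its sign, with medians of -0.86 and 1.30. Leaving out 1 other library gave 286 calls without MIRKO 1, 368 without MIRKO 2, 39 without MIRKO 3, 22 without IRlox 1, 17 without IRlox 2 and 39 without IRlox 3. A fit to the 2 groups alone called 9 genes (0.0738%). That fit without the library labelled MIRKO 4, an alternative added after seeing the data, called 79 (0.667%), 38 higher and 41 lower, of which 38 were among the 170. Scaling by library totals alone raised the median log2 difference of all genes from 0.03 to 0.30, and the calls were then 229 higher and 50 lower.

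The 13 genes called both with and without the library labelled MIRKO 4 were Insr and 11 others that fell, together with 1 that rose, Scn3b. Of them, 13 were called with library totals alone (2.04% of all genes were called there), 12 with the runs of library numbers as a block (0.542% of all genes were called there), and 13 with an offset for transcript length. The fit to the 2 groups with all 7 libraries called 6 of them (0.0738% of all genes were called there). The fit to the 2 groups without the library labelled MIRKO 4, added after seeing the data, called 10 (0.667% of all genes were called there). With the length offset and without that library, which called 0.0516% of all genes, 6 were called, namely Insr, Aldh1a1, Ptpn3, Cpt2, Igfbp5 and Scn3b. Insr, Aldh1a1 and Ptpn3 were called in the same direction under each of the 20 other settings tried.

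**Figure D1:**
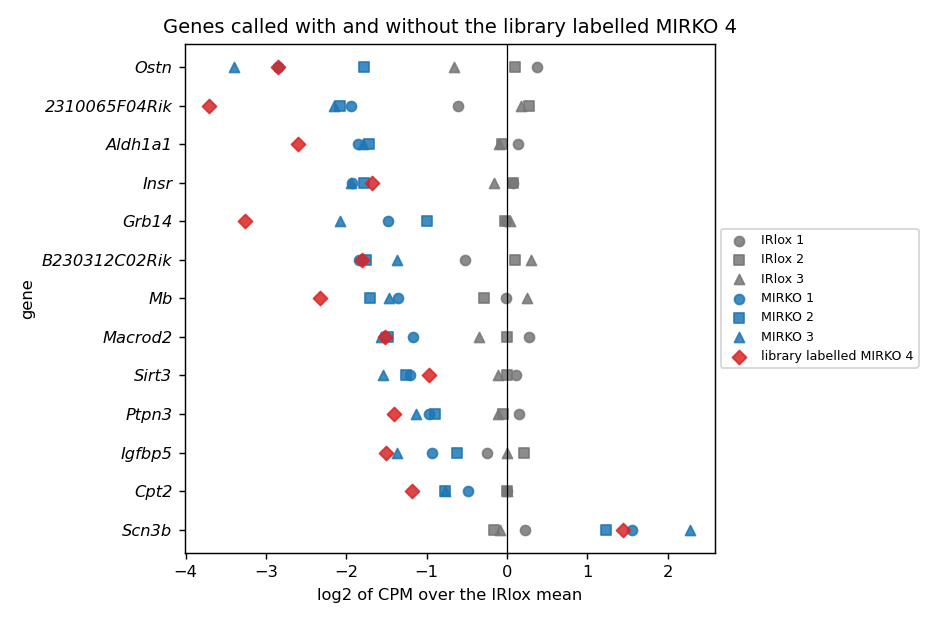
Log2 of CPM over the IRlox mean (horizontal axis) for the 13 genes called with and without the library labelled MIRKO 4, 1 point per library. Grey points are IRlox, blue points MIRKO 1 to 3 and red diamonds the library labelled MIRKO 4. For all 13 genes the MIRKO points lie to one side of the IRlox points.

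Aldh1a1, a retinaldehyde dehydrogenase that makes retinoic acid (ENSMUSG00000053279, chromosome 19, 20492715 to 20643465, plus strand), was at 169, 147 and 143 CPM in IRlox and at 42.3, 46.7, 44.4 and 25.3 CPM in MIRKO. It fell by 1.95 ± 0.23 (SE) on the log2 scale (adjusted p = 7.7e-06, and 0.0001 without the library labelled MIRKO 4), a loss about as deep as that of Insr, and MIRKO 1 to 3 were nearly equal. Ptpn3, a protein tyrosine phosphatase of the membrane skeleton (ENSMUSG00000038764, chromosome 4, 57190841 to 57301837, minus strand), was at 171, 149 and 142 CPM in IRlox and at 78.2, 82.4, 70.3 and 57.8 CPM in MIRKO. Its log2 change was -1.09 ± 0.16 (adjusted p = 0.00051, and 0.0071 without the library labelled MIRKO 4). For both genes the lowest IRlox library was well above the highest MIRKO library.

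The genes of an adaptor of the insulin receptor and of an IGF-binding protein also fell. Grb14, an adaptor that binds the active insulin receptor and inhibits its kinase, was at 21.0, 20.9 and 21.8 CPM in IRlox and at 7.63, 10.6, 5.02 and 2.22 CPM in MIRKO, a log2 change of -1.77 ± 0.33 SE (adjusted p = 0.0069, and 0.044 without the library labelled MIRKO 4). IRlox was almost constant, whereas the MIRKO libraries spread over a wide range. Igfbp5, a secreted protein that binds IGFs, was at 1456, 2007 and 1735 CPM in IRlox and at 907, 1122, 669 and 612 CPM in MIRKO (log2 change -1.07 ± 0.19, adjusted p = 0.0054, and 0.044 without that library).

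Genes of oxygen storage and mitochondrial metabolism were also among the 13. Mb, myoglobin, which stores oxygen in muscle fibers, was at 1243, 1027 and 1478 CPM in IRlox and at 489, 384, 453 and 249 CPM in MIRKO, 3.17-fold lower (log2 change -1.67 ± 0.29 SE, adjusted p = 0.0054). Without the library labelled MIRKO 4 the loss was 2.83-fold (adjusted p = 0.044). Cpt2, which releases long-chain acyl groups for oxidation inside mitochondria, was at 72.1, 71.9 and 72.4 CPM in IRlox and at 51.6, 42.2, 42.1 and 31.9 CPM in MIRKO. The 3 control values were nearly identical and each MIRKO value was lower (log2 change -0.79 ± 0.13, adjusted p = 0.0041, and 0.04 without that library). Sirt3, the main mitochondrial protein deacetylase, was at 17.8, 16.5 and 15.3 CPM in IRlox and at 7.17, 6.90, 5.65 and 8.45 CPM in MIRKO, and here the library labelled MIRKO 4 was the highest of the 4 (log2 change -1.22 ± 0.25, adjusted p = 0.014, and 0.044 without it).

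Ostn encodes osteocrin, also called musclin, a peptide secreted by muscle. It was at 23.7, 19.5 and 11.5 CPM in IRlox and at 2.54, 5.32, 1.73 and 2.52 CPM in MIRKO (log2 change -2.59 ± 0.43 SE, adjusted p = 0.0038, and 0.037 without the library labelled MIRKO 4). The spread within IRlox was about 2-fold, and the lowest control still exceeded the highest MIRKO library. Macrod2, an ADP-ribose hydrolase, fell from 7.31 to 11.3 CPM in IRlox to 3.14 to 4.16 CPM in MIRKO (adjusted p = 0.007, and 0.047 without the library labelled MIRKO 4).

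The other genes of the 13 were a pair of long noncoding RNAs and Scn3b. The long noncoding RNA 2310065F04Rik (chromosome 11, 67112461 to 67120080, minus strand) lies between the embryonic myosin gene Myh3, which ends at 67102291, and the fast myosin gene Myh2, which starts at 67171027. It was at 88.8, 164 and 153 CPM in IRlox and at 35.4, 32.1, 30.6 and 10.4 CPM in MIRKO, a log2 change of -2.33 ± 0.42 SE (adjusted p = 0.0069, and 0.045 without the library labelled MIRKO 4). B230312C02Rik (chromosome 2, 180370491 to 180385885, minus strand) was at 21.3 to 37.7 CPM in IRlox and at 8.56 to 11.8 CPM in MIRKO (adjusted p = 0.0069, and 0.047 without that library). Scn3b, a beta subunit of voltage-gated sodium channels, was at 4.31, 3.30 and 3.49 CPM in IRlox and at 10.9, 8.67, 18.0 and 10.1 CPM in MIRKO. It rose by 1.69 ± 0.33 on the log2 scale (adjusted p = 0.009, and 0.037 without the library labelled MIRKO 4), and MIRKO 3, not the library labelled MIRKO 4, was the highest.

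Among the other genes with large falls, Mss51, a muscle protein linked to mitochondrial metabolism, was at 35.3, 48.5 and 32.4 CPM in IRlox and at 4.86, 8.67, 5.96 and 2.67 CPM in MIRKO, 7.02-fold lower (adjusted p = 0.007). All 4 MIRKO libraries were far below the controls. Without the library labelled MIRKO 4 the loss was 5.90-fold, with an adjusted p of 0.064 in the fit to all groups. The fit to the 2 groups, added after seeing the data, gave 0.0012. Ramp1, a subunit of the receptor for the neuropeptide CGRP, was at 26.4, 25.6 and 28.7 CPM in IRlox and at 10.9, 7.88, 3.61 and 3.56 CPM in MIRKO (adjusted p = 0.045, and 0.20 without the library labelled MIRKO 4). Cdh4, a cadherin, was at 24.2, 49.0 and 43.8 CPM in IRlox and at 3.47, 10.8, 8.32 and 0.741 CPM in MIRKO (adjusted p = 0.019, and 0.086 without it). The stress-induced gene Gadd45b was at 29.6, 34.1 and 16.3 CPM in IRlox and at 11.8, 2.96, 5.02 and 3.56 CPM in MIRKO (adjusted p = 0.025, and 0.13 without it). Each of these genes was lower in all 4 MIRKO libraries, and none of the 4 was called in the fit to all groups once the library labelled MIRKO 4 was left out.

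Of the 44 insulin and IGF signalling genes tested, 2 fell, the deleted gene Insr and Grb14, and none rose, beside 0.865% of all genes called lower. The same 2 were called without the library labelled MIRKO 4. The median log2 difference of the list was 0.09 beside 0.03 for all genes, and 0.06 beside 0.02 without that library. Akt2, the Akt kinase that drives glucose uptake in muscle, was at 156, 123 and 135 CPM in IRlox and at 162, 181, 168 and 226 CPM in MIRKO (adjusted p = 0.16, and 0.40 without it). Irs2, an insulin receptor substrate, overlapped between the groups, with 13.8 to 20.7 CPM in IRlox and 17.4 to 23.7 CPM in MIRKO (adjusted p = 0.61 and 0.74). Foxo3 was at 57.6 to 74.6 CPM in IRlox, at 66.9, 73.9 and 78.5 CPM in MIRKO 1 to 3 and at 144 CPM in the library labelled MIRKO 4 (adjusted p = 0.32 and 0.79). Foxo1 had the same pattern, with 31.4 to 35.3 CPM in IRlox, 22.2, 29.9 and 36.6 CPM in MIRKO 1 to 3 and 70.8 CPM in the library labelled MIRKO 4. Its log2 difference was 0.29 with that library and -0.14 without it, and neither passed the test (adjusted p = 0.73 and 0.90).

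None of the 18 genes of glucose transport and GLUT4 traffic was called, and their median log2 difference was -0.03. Slc2a4, the GLUT4 transporter, was at 1195, 803 and 852 CPM in IRlox and at 735, 835, 680 and 636 CPM in MIRKO, with overlapping groups (log2 difference -0.40 ± 0.19 SE, adjusted p = 0.29, and 0.49 without the library labelled MIRKO 4). Slc2a1, the basal transporter GLUT1, also overlapped, at 15.4 to 20.5 CPM in IRlox and 12.4 to 35.0 CPM in MIRKO (adjusted p = 0.49 and 0.63). None of the 35 FoxO atrogenes and ubiquitin ligases, 34 proteasome genes or 26 autophagy and lysosome genes was called either, with median log2 differences of 0.12, -0.14 and -0.04. None of these genes was called without the library labelled MIRKO 4 either, and the medians were 0.05, -0.13 and -0.05. An adjusted p above the threshold does not show that these genes were equal.

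The respiratory chain genes lay lower in MIRKO as lists, with few single calls. Of 37 subunits of complex I, which passes electrons from NADH to ubiquinone, 36 had a log2 difference below 0, and 21 were lower in every MIRKO library than in every IRlox library, against 8.22% of all genes. The test called 2 of them, both lower, against 0.865% of all genes, and the median was -0.76 (-0.85 without the library labelled MIRKO 4, where none was called). Of 43 nuclear genes of complexes II to V, 1 was called, Cox5a, 24 were lower without overlap, and the median was -0.67. Without the library labelled MIRKO 4 none was called (median -0.75, adjusted p = 0.17 for Cox5a), and with the runs as a block none was called. All 13 mitochondrially encoded mRNAs lay lower, with a median of -0.69, and 1 was called (without that library none, median -0.99).

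The complex I genes that fell were Ndufs1 and Ndufa8. Ndufs1, a core subunit that carries iron-sulfur clusters, was at 478, 546 and 575 CPM in IRlox and at 365, 469, 374 and 273 CPM in MIRKO (log2 change -0.53 ± 0.13 SE, adjusted p = 0.04, and 0.20 without the library labelled MIRKO 4). Its highest MIRKO library was just under its lowest control. Ndufa8 was at 83.7, 69.7 and 79.4 CPM in IRlox and at 49.5, 43.9, 41.3 and 51.0 CPM in MIRKO (log2 change -0.74 ± 0.19, adjusted p = 0.04, and 0.13 without that library), and mt-Nd2, a complex I subunit that the mitochondrial genome encodes, was at 6448, 6516 and 6390 CPM in IRlox and at 3552, 2951, 2967 and 3360 CPM in MIRKO (log2 change -1.01 ± 0.23, adjusted p = 0.029, and 0.09 without it). The IRlox values of mt-Nd2 were nearly identical, and all 4 MIRKO libraries, the one labelled MIRKO 4 included, were far below them (2.01-fold lower).

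**Figure D2:**
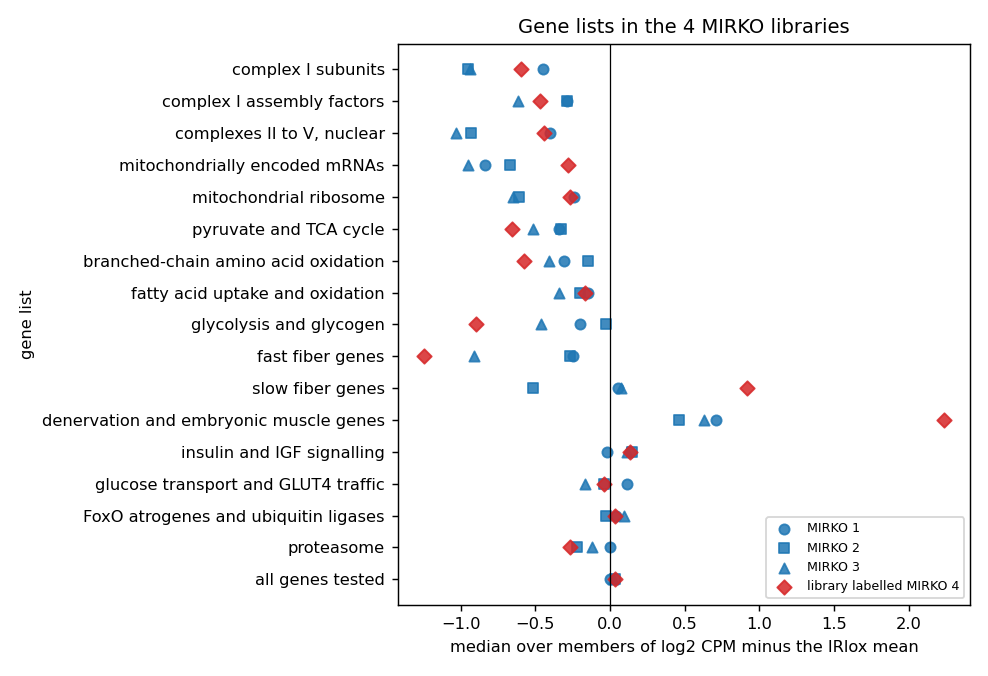
Median over the members of each gene list of log2 CPM minus the IRlox mean (horizontal axis), by MIRKO library. The 4 libraries lie below 0 for complex I subunits (-0.45, -0.95, -0.94 and -0.60 in MIRKO 1 to 4), and the library labelled MIRKO 4 is far above the others for denervation and embryonic muscle genes, at 2.24.

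Short transcripts were low in general in MIRKO 2 and MIRKO 3. Among protein-coding genes with a main transcript of up to 1000 bases (381 genes), the median log2 difference from the IRlox mean was -0.11, -0.67, -0.76 and -0.16 in MIRKO 1 to 4, and among those over 5000 bases it was -0.04, 0.13, 0.09 and -0.01. Cytosolic ribosomal protein genes, most of them short, were at 0.22, -0.77, -0.48 and 0.58. Many respiratory chain genes are short: the 21 complex I subunits of up to 1000 bases were at -0.50, -1.22, -1.24 and -0.28, and the 4 over 2000 bases at -0.44, -0.47, -0.65 and -0.74. The shortest class was thus low mostly in MIRKO 2 and 3, and the longest class lay below the controls in all 4 libraries.

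With an offset for transcript length in each library, an alternative chosen after seeing the data, 136 genes were called (0.997%), 122 of them among the 170. The median log2 difference was then -0.44 for complex I, -0.32 for complexes II to V and -0.48 for the mitochondrially encoded mRNAs, beside 0.07 for all genes. None of the respiratory chain genes was called. In the pair that shared a run, MIRKO 1 over IRlox 2, the medians were -0.36, -0.33 and -0.72. The part of transcript length in the calls of single genes was not tested further.

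Ndufa3 and Ndufc2 are small complex I subunits chosen after their values were seen. Ndufa3, with a main transcript of 515 bases, was at 32.0, 27.5 and 49.5 CPM in IRlox and at 16.2, 7.29, 8.79 and 30.5 CPM in MIRKO. Ndufc2, of 683 bases, was at 98.0, 75.4 and 96.8 CPM in IRlox and at 42.6, 29.4, 34.7 and 77.7 CPM in MIRKO. For both genes MIRKO 1 to 3 were below every control and the library labelled MIRKO 4 was level with the controls. Neither was called with all 7 libraries (adjusted p = 0.34 and 0.13), and both were called in the fit to the 2 groups without the library labelled MIRKO 4 (adjusted p = 0.047 and 0.015). That fit was added after seeing the data. It called 5 of the 36 complex I subunits tested in it lower, beside 41 of all 11840 genes.

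**Figure D3:**
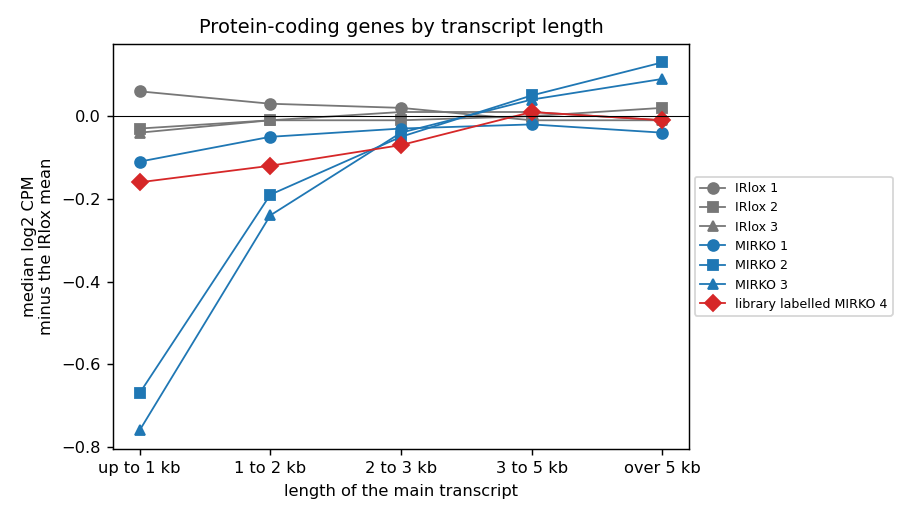
Median log2 CPM minus the IRlox mean (vertical axis) of protein-coding genes by the length of the main transcript (horizontal axis), 1 line per library. MIRKO 2 and MIRKO 3 drop to -0.67 and -0.76 for transcripts of up to 1000 bases, while MIRKO 1 and the library labelled MIRKO 4 are at -0.11 and -0.16.

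Genes of pyruvate oxidation and the tricarboxylic acid (TCA) cycle have longer transcripts, with a median of 2590 bases against 908 for complex I. Of 36 tested, 5 fell (0.865% of all genes were called lower), none rose, and 18 were lower in every MIRKO library (8.22% of all genes). The median log2 difference was -0.46, -0.40 without the library labelled MIRKO 4 and -0.43 with the length offset. With the offset 5 were called, with the runs as a block 1 and with library totals only 1. None was called without the library labelled MIRKO 4, with or without the offset. Mdh1, the cytosolic malate dehydrogenase of the malate-aspartate shuttle, was at 1106, 868 and 963 CPM in IRlox and at 670, 554, 449 and 434 CPM in MIRKO (log2 change -0.89 ± 0.17 SE, adjusted p = 0.0088). Mdh2, its mitochondrial counterpart, was at 631, 604 and 527 CPM in IRlox and at 450, 364, 298 and 295 CPM in MIRKO (log2 change -0.74 ± 0.18, adjusted p = 0.038). Both enzymes had their lowest value in the library labelled MIRKO 4, and both were also below every control in the other MIRKO libraries.

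Fh1, fumarase, was at 185, 189 and 193 CPM in IRlox and at 146, 106, 91.8 and 115 CPM in MIRKO (adjusted p = 0.035). Pdhx, which anchors a subunit of the pyruvate dehydrogenase complex, was at 104, 103 and 94.8 CPM in IRlox and at 75.2, 62.3, 56.2 and 50.8 CPM in MIRKO (adjusted p = 0.029). Suclg1, a subunit of succinyl-CoA ligase, was at 241, 216 and 258 CPM in IRlox and at 168, 115, 138 and 148 CPM in MIRKO (adjusted p = 0.041). The control values of these genes were tight, and every MIRKO value was below them. None of the 5 was called without the library labelled MIRKO 4, with adjusted p between 0.064 for Mdh1 and 0.19 for Mdh2.

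Other metabolic lists held fewer calls. Of 42 genes of glycolysis and glycogen, 2 fell, beside 0.865% of all genes. They were Pfkfb1, which sets fructose 2,6-bisphosphate (63.2, 83.2 and 68.2 CPM in IRlox and 47.2, 52.8, 28.7 and 21.6 CPM in MIRKO, adjusted p = 0.029), and Ldhb, the lactate dehydrogenase subunit of oxidative fibers (374, 265 and 303 CPM against 208, 124, 173 and 178 CPM, adjusted p = 0.03). Neither was called without the library labelled MIRKO 4 (adjusted p = 0.15 and 0.11). The list's median log2 difference was -0.34, and by library it was -0.20, -0.03, -0.46 and -0.90, lowest in the library labelled MIRKO 4.

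Of 40 genes of fatty acid uptake and oxidation only Cpt2 was called, and of 22 genes of branched-chain amino acid oxidation none was, with median log2 differences of -0.27 and -0.34. Leaving out the library labelled MIRKO 4, these counts were 1 and 0 and the medians -0.27 and -0.31. Among 72 mitochondrial ribosome genes none was called and 26 were lower without overlap, against 8.22% of all genes. Their median was -0.46, -0.48 without that library and -0.29 with the length offset. Ckmt2, the mitochondrial creatine kinase, was at 2026, 1737 and 2540 CPM in IRlox and at 1151, 1331, 1393 and 767 CPM in MIRKO (log2 change -0.86 ± 0.22 SE, adjusted p = 0.042, and 0.20 without the library labelled MIRKO 4). Vdac1, the main channel of the outer mitochondrial membrane, was at 2340, 2123 and 2264 CPM in IRlox and at 1384, 1639, 1410 and 1107 CPM in MIRKO (adjusted p = 0.033, and 0.17 without it). Alas1, the first enzyme of heme synthesis, was at 364, 237 and 219 CPM in IRlox and at 179, 131, 129 and 105 CPM in MIRKO (adjusted p = 0.029, and 0.15 without it). Fndc5, the precursor of irisin, was at 130, 123 and 130 CPM in IRlox and at 93.9, 70.7, 73.0 and 47.6 CPM in MIRKO (adjusted p = 0.038, and 0.20 without it). In each of these genes every MIRKO library was below every control.

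Some genes that mark denervated or embryonic muscle rose in MIRKO. Of 30 tested, 5 rose, namely Chrna1, Myog, Runx1, Ncam1 and Cdkn1a (0.381% of all genes were called higher), none fell, and 12 were higher without overlap, against 7.88% of all genes. The median log2 difference of the list was 1.38 with the library labelled MIRKO 4 and 0.76 without it, where none was called. When a fiber loses its nerve, myogenic regulators such as myogenin rise and act on the promoters of the acetylcholine receptor subunits through E-boxes, sites with the letters CANNTG. The promoters of 3 of these genes, chosen because they hold E-boxes, are shown for that reason, as the 180 bases before the RefSeq start site on the strand of the gene (build GRCm38.p6), with each E-box in capitals. Runx1 has more than 1 start site and its first is shown.
Chrna1, chr2:73580339-73580518, minus strand: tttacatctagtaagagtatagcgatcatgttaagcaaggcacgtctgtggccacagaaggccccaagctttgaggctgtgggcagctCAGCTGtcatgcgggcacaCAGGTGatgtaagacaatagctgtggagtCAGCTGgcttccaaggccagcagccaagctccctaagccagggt
Myog, chr1:134289824-134290003, plus strand: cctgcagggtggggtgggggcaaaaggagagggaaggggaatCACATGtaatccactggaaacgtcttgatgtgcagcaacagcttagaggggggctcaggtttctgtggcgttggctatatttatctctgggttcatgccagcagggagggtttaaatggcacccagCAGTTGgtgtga
Runx1, chr16:92826075-92826254, minus strand: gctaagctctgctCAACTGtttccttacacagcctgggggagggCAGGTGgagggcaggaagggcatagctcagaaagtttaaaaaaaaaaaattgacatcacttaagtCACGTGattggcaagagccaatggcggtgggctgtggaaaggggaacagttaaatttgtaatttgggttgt
In these stretches Chrna1 had 3 E-boxes, whose first bases lie 92, 73 and 44 bases before the start site, Myog had 2, at 138 and 12 bases, and Runx1 had 3, at 167, 136 and 71 bases. The second start site of Runx1 had none within 250 bases. Cdkn1a, also called, had none within 250 bases of its first start site and 1 at its second, 187 bases before it. E-boxes are frequent: of 32851 promoters, 66.2% held at least 1 within 250 bases before the start, 31.8% at least 2 and 12.2% at least 3. Since CANNTG reads the same on both strands, 1 search covers both. The FoxO core GTAAACA, or TGTTTAC on the other strand, was in none of the 3 stretches and in 3.2% of all promoters. A match of letters is not a measured binding site.

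Chrna1, the acetylcholine receptor alpha subunit, was at 26.9, 15.7 and 31.1 CPM in IRlox and at 61.5, 54.0, 59.6 and 354 CPM in MIRKO. All 4 MIRKO libraries were above the controls, and the library labelled MIRKO 4 was far above the other 3. The rise was 5.36-fold (adjusted p = 0.046) with that library and 2.36-fold (adjusted p = 0.30) without it, and the fit to the 2 groups without it gave an adjusted p of 0.041. Chrng, the gamma subunit of the embryonic receptor, had no more than 0.551 CPM in any IRlox library and was at 3.24, 3.94, 2.67 and 21.0 CPM in MIRKO (adjusted p = 0.06 with all 7 libraries, and 0.041 in the fit to the 2 groups without the library labelled MIRKO 4). That fit was added after seeing the data. Of the 25 genes of the list tested in it, only these 2 were called (0.321% of all genes were called higher there).

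Myog, the myogenic factor myogenin, was at 3.77, 2.48 and 4.82 CPM in IRlox and at 12.7, 5.91, 10.0 and 34.7 CPM in MIRKO (4.21-fold, adjusted p = 0.029, and 2.51-fold, adjusted p = 0.20, without the library labelled MIRKO 4). Runx1, a transcription factor that rises in denervated fibers, was at 8.34, 6.33 and 5.48 CPM in IRlox and at 25.7, 14.0, 46.0 and 37.0 CPM in MIRKO (4.63-fold, adjusted p = 0.031, and 4.31-fold, adjusted p = 0.13, without it). For Runx1, unlike Myog, MIRKO 3 was the highest library. Ncam1, a cell adhesion molecule that spreads over denervated fibers, was at 14.0, 9.91 and 13.6 CPM in IRlox and at 30.5, 21.9, 24.0 and 38.1 CPM in MIRKO (2.28-fold, adjusted p = 0.029, and 2.02-fold, adjusted p = 0.15, without it).

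Cdkn1a, the cell cycle inhibitor p21, was at 33.1, 26.2 and 30.1 CPM in IRlox and at 51.8, 29.8, 101 and 202 CPM in MIRKO, and MIRKO 2 overlapped the controls (3.24-fold, adjusted p = 0.035, and 2.05-fold, adjusted p = 0.24, without the library labelled MIRKO 4). Myh3, embryonic myosin, was at 9.96, 5.23 and 4.98 CPM in IRlox and at 10.9, 26.0, 20.6 and 105 CPM in MIRKO (adjusted p = 0.068, and 0.32 without that library). Sln, sarcolipin, which inhibits the calcium pump of the sarcoplasmic reticulum, was at 1.66 to 2.96 CPM in IRlox and 3.45 to 7.40 CPM in MIRKO 1 to 3, and reached 167 CPM in the library labelled MIRKO 4 (adjusted p = 0.13 with it and 0.73 without it). For Chrna1, Myog, Ncam1, Cdkn1a, Myh3 and Sln that library was the highest. For Runx1 and Ncam1 the fold was similar with and without it. MIRKO 1 over IRlox 2, from a shared run, gave a median log2 ratio of 0.82 for the list.

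**Figure D4:**
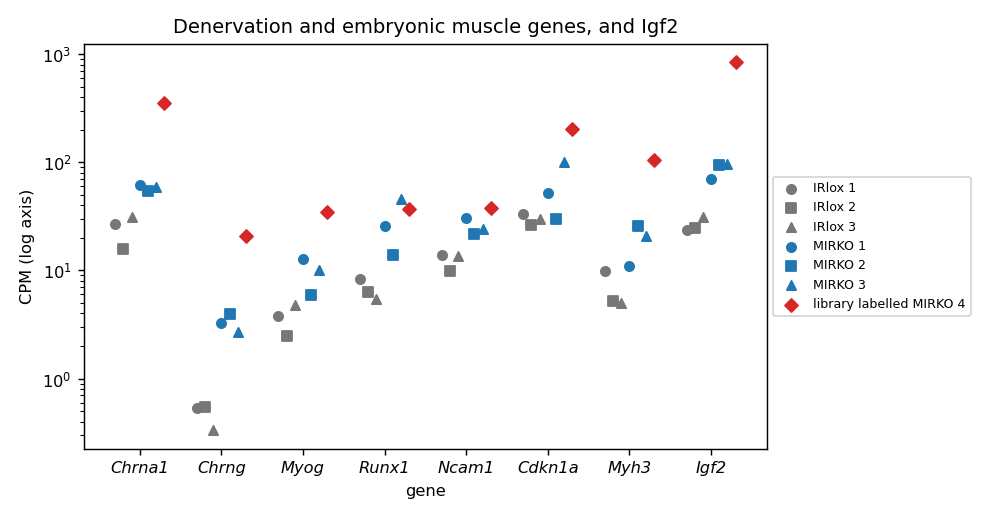
CPM on a log axis (vertical) of 7 denervation and embryonic muscle genes and Igf2 in each library. Grey points are IRlox, blue points MIRKO 1 to 3 and red diamonds the library labelled MIRKO 4, which is the highest in each gene except Runx1.

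Igf2, the fetal growth factor that binds both receptors, was at 23.7, 24.8 and 31.2 CPM in IRlox and at 70.6, 95.0 and 96.4 CPM in MIRKO 1 to 3, and reached 839 CPM in the library labelled MIRKO 4. It rose 10.3-fold with that library (adjusted p = 0.034) and was 3.27-fold higher without it. There the fit to all groups gave an adjusted p of 0.24, and the fit to the 2 groups, added after seeing the data, 0.0026. MIRKO 1 to 3 were close to each other and clear of the controls. Slc38a1, a glutamine transporter, was at 4.04, 3.30 and 2.66 CPM in IRlox and at 18.0, 7.68, 18.4 and 67.4 CPM in MIRKO (8.55-fold, adjusted p = 0.035, and 4.47-fold, adjusted p = 0.20, without the library labelled MIRKO 4). Tubb6, a tubulin of regenerating fibers, was at 12.4, 13.5 and 10.1 CPM in IRlox and at 51.6, 18.9, 55.2 and 35.3 CPM in MIRKO (adjusted p = 0.026, and 0.064 without that library), and the library labelled MIRKO 4 was not the highest.

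Markers of the cell types of muscle were read as summed CPM. Macrophage and other immune markers summed to 392 to 484 CPM in IRlox and to 1495, 698, 1153 and 828 CPM in MIRKO 1 to 4. Of 19 listed, 14 were tested and all 14 had a log2 difference above 0, with a median of 1.01. None was called, 9 were higher without overlap (7.88% of all genes were), and none of the 19 was at 0 in every library. The fit to all groups without the library labelled MIRKO 4 called none either, and the median was 1.07. In the fit to the 2 groups without the library labelled MIRKO 4, an alternative chosen after seeing the data, 2 were called, Cd74 and H2-Aa (0.321% of all genes were called higher there). H2-Aa, an antigen-presenting molecule, was at 28.0, 25.1 and 28.2 CPM in IRlox and at 92.1, 70.5, 44.4 and 68.3 CPM in MIRKO (adjusted p = 0.041 in that fit and 0.31 with all 34 libraries). Cd74, the invariant chain that goes with it, was at 75.6, 76.0 and 67.2 CPM in IRlox and at 153, 127, 110 and 179 CPM in MIRKO (adjusted p = 0.046 and 0.19).

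Dock2, Cd53 and Siglec1 belong to no list and were chosen after their values were seen, from the 38 genes called higher in that fit. Dock2, which moves leukocytes, was at 2.15, 4.41 and 2.82 CPM in IRlox and at 20.1, 8.67, 20.1 and 7.85 CPM in MIRKO (adjusted p = 0.039, and 0.16 with all 34 libraries). Cd53, a leukocyte tetraspanin, was at 1.88, 3.03 and 4.32 CPM in IRlox and at 14.8, 7.88, 14.4 and 7.56 CPM in MIRKO (adjusted p = 0.041 and 0.19). MIRKO 1 and MIRKO 3 were highest and MIRKO 2 and the library labelled MIRKO 4 lower, and all 4 were above the controls. Siglec1, a macrophage receptor, was at 9.69, 5.23 and 8.47 CPM in IRlox and at 34.5, 15.6, 26.8 and 16.4 CPM in MIRKO (adjusted p = 0.047 and 0.32). The part of the immune markers in the calls of other genes was not tested.

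**Figure D5:**
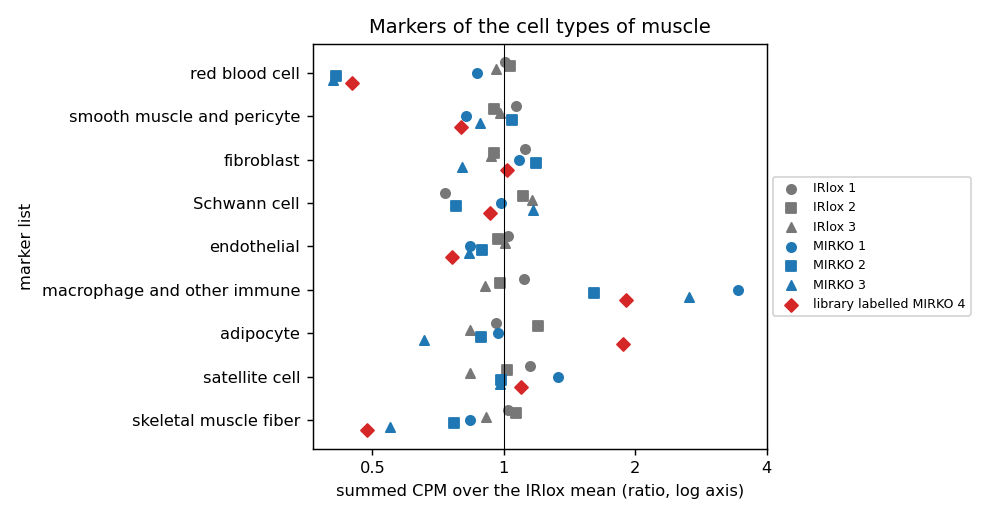
Summed CPM of each marker list as a ratio to the IRlox mean (horizontal log axis), 1 point per library. All 4 MIRKO libraries lie above the IRlox libraries for immune markers, and the skeletal muscle fiber markers run from 166400 CPM in MIRKO 1 down to 96310 CPM in the library labelled MIRKO 4.

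Skeletal muscle fiber markers, which define the tissue, were the most abundant marker list in each library. Their summed level was 181300 to 211300 CPM in IRlox and 166400, 152400, 109200 and 96310 CPM in MIRKO 1 to 4, with no member called. Adipocyte markers were at 367 to 525 CPM in IRlox, at 288 to 424 CPM in MIRKO 1 to 3 and at 819 CPM in the library labelled MIRKO 4. Red blood cell markers summed to 56.1 to 60.3 CPM in IRlox and to 50.7, 24.0, 23.7 and 26.2 CPM in MIRKO. The summed fibroblast, Schwann cell, smooth muscle and satellite cell markers overlapped between the groups, and the endothelial markers were lower in MIRKO, at 523 to 613 CPM against 665 to 703 CPM, with no member called.

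The fiber type genes were uneven between MIRKO libraries. Fast fiber genes (16 tested, none called) had a median log2 difference of -0.52 and by library of -0.25, -0.27, -0.91 and -1.25. Slow fiber genes (17 tested, none called) had medians of 0.05, -0.52, 0.07 and 0.92. Myh4, the myosin of type 2B fibers, was at 65965, 61587 and 53762 CPM in IRlox and at 45725, 49661, 35264 and 24654 CPM in MIRKO, and every MIRKO library was below every control without a call (log2 difference -0.64 ± 0.23 SE, adjusted p = 0.15, and 0.37 without the library labelled MIRKO 4). Myh2, the myosin of type 2A fibers, was at 1487 to 2106 CPM in IRlox, at 1593, 854 and 1531 CPM in MIRKO 1 to 3 and at 3904 CPM in the library labelled MIRKO 4. Its log2 difference was 0.07 with that library and -0.50 without it (adjusted p = 0.94 and 0.51). Tnnt1, slow troponin T, was at 120, 124 and 127 CPM in IRlox, at 84.2, 66.0 and 57.8 CPM in MIRKO 1 to 3 and at 141 CPM in the library labelled MIRKO 4. Its log2 difference in the main fit was -0.5 and did not pass the test (adjusted p = 0.61). The fit to the 2 groups without that library, added after seeing the data, called it lower (adjusted p = 0.047). Dmd, dystrophin, was at 175, 214 and 148 CPM in IRlox and at 103, 88.5, 65.1 and 23.4 CPM in MIRKO (adjusted p = 0.08, 0.25 without the library labelled MIRKO 4, and 0.041 in that fit).

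The change in MIRKO was set against the change in MIGF1RKO, which has its own floxed controls, to ask which genes changed differently after loss of the insulin receptor and of the IGF-1 receptor. The test of the difference called 3 of 13646 genes (0.022%), all lower in MIRKO. One of them is Insr, the gene deleted in MIRKO. Igf1r, deleted in MIGF1RKO and not in MIRKO, was not called, so a gene without a call here need not have changed alike. Insr changed by -1.83 in MIRKO and -0.17 in MIGF1RKO, a difference of -1.66 ± 0.22 (SE) on the log2 scale (adjusted p = 0.00015). Cpt2 changed by -0.79 and 0.18, a difference of -0.97 ± 0.18 (adjusted p = 0.029). Map3k7cl changed by -0.67 and 1.05, a difference of -1.73 ± 0.30 (adjusted p = 0.012), and of these changes only the one in MIGF1RKO passed its own test (adjusted p = 0.11 in MIRKO and 0.0062 in MIGF1RKO). Genes with an unadjusted p under 0.05 for this difference numbered 1166. The same test without the library labelled MIRKO 4 called 2 genes (0.0147%), Insr (adjusted p = 0.00025) and Map3k7cl (adjusted p = 0.014), and the difference for Cpt2 was -0.85 ± 0.17 (adjusted p = 0.11). Without MIRKO 3, and likewise without IRlox 1, 1 gene was called.

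Of the 13 genes called with and without the library labelled MIRKO 4, 3 were also called in the same direction in MIGF1RKO, where 0.616% of all genes were called. Aldh1a1 changed by -0.90 (adjusted p = 0.028), Ostn by -2.30 (adjusted p = 0.001) and Scn3b by 1.53 (adjusted p = 0.0065) there. Mss51 fell in MIGF1RKO as well, with a log2 change of -2.95 (adjusted p = 0.00096). The difference between the changes did not pass the test for any of these 4 genes (adjusted p from 0.36 to 0.97).

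All 13 genes were called in the same direction in MIGIRKO, where 33.7% of all genes were called, and of the 170 genes 162 were. None of the 170 was called in the opposite direction. The 170 were called with the library labelled MIRKO 4, whose closest library was a MIGIRKO library. It was the lowest of the 4 for 91 of the 118 genes called lower and the highest for 36 of the 52 called higher. The overlap of the 170 with the MIGIRKO calls is therefore not an independent check. The change in MIGIRKO was -2.92 for Aldh1a1, -1.65 for Ptpn3, -2.35 for Mb and -3.09 for Grb14. The test of the difference between the MIRKO and MIGIRKO changes called 0 genes with edgeR (1421 at an unadjusted p under 0.05) and 39 with DESeq2. With edgeR it thus did not call Igf1r, which was deleted in MIGIRKO and not in MIRKO. The count of 0 therefore does not show that the changes were alike.

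Without the library labelled MIRKO 4 that test called 145 genes (1.07%), 101 with a higher value and 44 with a lower value of the MIRKO minus the MIGIRKO change. Grb14 was among them, with a log2 change of -1.46 in MIRKO 1 to 3 and -3.09 in MIGIRKO (adjusted p = 0.042). Golm1, a Golgi membrane protein, did not pass the test in MIRKO 1 to 3 (33.8, 34.1 and 21.7 CPM against 30.8 to 33.6 CPM in IRlox, adjusted p = 0.84) and was at 10.2 CPM in the library labelled MIRKO 4. Tfcp2l1, a transcription factor, was at 31.2, 26.4 and 14.9 CPM in MIRKO 1 to 3, 3.26 CPM in the library labelled MIRKO 4 and 20.8 to 29.6 CPM in IRlox (adjusted p = 0.96 without that library). The differences from the MIGIRKO change without that library were 1.96 ± 0.27 (SE) on the log2 scale for Golm1 (adjusted p = 0.00055) and 3.59 ± 0.60 for Tfcp2l1 (adjusted p = 0.0082).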

How the data were processed

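The authors deposited 1 table of raw counts per Ensembl gene, 46071 genes by 34 libraries, and all columns were used. Reads were aligned with STAR to GRCm38.p4 and counted with featureCounts, per the submitters' processing notes; versions, annotation release and strand setting are not given in the sources used here, so overlapping or antisense genes may share counts. Symbols, coordinates and transcript lengths were taken from GENCODE M21 (45143 gene IDs matched) and promoters from RefSeq (6 of 8 genes searched matched; Ncam1 and Ostn are named only). Groups were read from the labels.

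Counts were analysed with edgeR 4.0.16 (R 4.3.3; limma 3.58.1 and DESeq2 1.42.0 for alternatives). Genes were kept by filterByExpr, totals were scaled by TMM factors, and a quasi-likelihood model with robust shrinkage took the 34 libraries together, with a mean for each of the 8 groups and a shared estimate of the spread. P-values were adjusted by Benjamini-Hochberg across all tested genes. Errors of log2 changes are standard errors. CPM values near 1 or below rest on few counts. The method was tested on simulated data, in which no library was made to stand apart. It called 10.4% of the genes changed 1.5-fold, 56.7% of those changed 2-fold and 90.9% of those changed 4-fold. Of 112 calls 7 were false.

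Altogether 41 gene lists with 1012 entries (1010 matched) are described by counts and medians, with no test. Members, lists and comparisons were chosen with earlier results of these data known. Named genes are Insr, Igf1r and Nnt, genes called with and without the library labelled MIRKO 4, the most changed called genes with an average log2 CPM of 1 or more (up to 15 per direction), up to 5 called members per list (or the 1 with the smallest adjusted p), and up to 5 genes per direction from each test of a difference. Myosin, signalling, transport, small complex I, leukocyte, Alas1, Vdac1, Chrng, Dmd and Tnnt1 values were chosen after they were seen. Alternatives were other scalings, filters, tests, controls, the runs as a block, fits to the compared groups and leaving out libraries. Transcript length offsets, and the fit to the 2 groups without the library labelled MIRKO 4, were added after seeing the data.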

Additional observations from a re-analysis of the deposited data

Results flagged for a closer look

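In 8 named genes the library labelled MIRKO 4 lay far from the other MIRKO libraries, beyond the limit of Dixon's test for 4 samples. Its value was 839 CPM for Igf2, 354 CPM for Chrna1, 30.4 CPM for Ccdc141, 105 CPM for Myh3, 167 CPM for Sln, 43.1 CPM for Ndufa7, 21.0 CPM for Chrng and 144 CPM for Foxo3, each the highest of the group. In BC048679 the library apart was MIRKO 1, at 3.01 CPM, and in the noncoding RNA B230312C02Rik it was MIRKO 3, at 11.8 CPM. Chance alone sets a library apart in about 1 of 20 genes at this limit. Over 13641 genes it happened in 841 (6.17%), and the library apart was the one labelled MIRKO 4 in 343 of them, MIRKO 1 in 207, MIRKO 2 in 153 and MIRKO 3 in 138. Among the named genes it was 10 of 127.

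The change in MIRKO differed from that in MIGF1RKO by a test of the difference for Insr (-1.66 on the log2 scale), Cpt2 (-0.97) and Map3k7cl (-1.73).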

How the results depend on the processing

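Among 127 named genes, none of the 61 called in MIRKO changed sign under any of the 20 other settings, and 3 (Insr, Aldh1a1 and Ptpn3) were called under all of them. The count of 170 calls became 279 with library totals only, 371 with DESeq2, 102 with no filter, 74 with the runs as a block, 9 in a fit to the compared groups, 2778 against all 12 floxed libraries, 33 without both the library labelled MIRKO 4 and MIGIRKO 6, 79 with the compared groups only and the library labelled MIRKO 4 left out, and 7 with the length offset and that library left out. Leaving out 1 library gave 13 (without the library labelled MIRKO 4) to 368 (without MIRKO 2). For the difference from the MIGF1RKO change, 3 calls became 1 with library totals only, 15 with DESeq2, 1 with the runs as a block, 1 with the compared groups only, and 1 to 4 with 1 library left out. For the difference from the MIGIRKO change, 0 calls became 39 with DESeq2, 145 without the library labelled MIRKO 4 and 457 without that library and MIGIRKO 6. In each case the cause was not tested. No paired analysis was possible because no label ties a MIRKO mouse to an IRlox littermate, and replicate numbers only count the libraries of a group.

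Genes that were not called changed sign as follows, on the log2 scale. With all floxed libraries as control, Tagln was at 0.03, Myo10 at -0.29, Snhg18 at 0.39, Ptn at 0.33, Foxo1 at -0.90 and Myh7 at 0.16. Without the library labelled MIRKO 4, in the fit to all groups, that fit also without MIGIRKO 6, and the fit to the 2 groups, Adamts20 was at -0.10, Foxo1 at -0.14 and Myh2 at -0.50. With the length offset and without that library they were at -0.16, -0.21 and -0.55. Leaving out 1 library at a time gave -0.73 to 0.01 for Tagln, -0.10 to 0.35 for Adamts20, -0.14 to 0.48 for Foxo1, -0.50 to 0.32 for Myh2 and -0.30 to 0.06 for Myh7. Myh7 was at 0.20 with library totals only, and Myh2 at -0.14 with limma-voom. With 4 against 3 libraries and 3880455 to 6117074 counts per library, 31 of the 170 called genes were under 10 CPM in every library.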
